A study of Triticum aestivum with 12 samples.

Results

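A set of 17 probe sets had the highest signal on the normal-K side of split wheat roots, in each of the 3 arrays of that side. They were chosen by these same array values out of 61115 probe sets of the Affymetrix Wheat Genome Array, a microarray on which a probe set is a group of short oligonucleotides that together read 1 transcript or a few close ones. The roots were those of Triticum aestivum, genotype Tongzhou916, raised in normal K for 3 weeks and then kept for 5 days in boxes with separate compartments, so that the root system of a plant was divided between them. Sp. NK was the side that received 1 mmol/L K2SO4 while the other side of the same plants received 0.005 mmol/L, and Sp. LK was that other side. In C. LK both sides received 0.005 mmol/L, and in C. NK both received 1 mmol/L. Each group had 3 arrays, each described in the study's methods as a biological replicate of pooled plants, and it is not stated whether Sp. NK and Sp. LK arrays of the same number came from the same plants.

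Potassium is the main inorganic cation of plant cells, where it carries osmotic pressure and membrane potential and activates enzymes. Roots take it up through inward-rectifying channels at ample supply and through high-affinity transporters when supply is low. A split-root design separates what a root senses in its own solution from what reaches it through the shoot: Sp. NK and C. NK grew in the same solution and differed in the supply of the other compartment, as Sp. LK and C. LK did. A transcript highest in Sp. NK is therefore higher there than in roots of the same local supply as well as in K-starved ones.

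The choice went as follows. The mean log2 signal over the 12 arrays had to be at least 7, which 26541 probe sets met and 34574 did not. The lowest Sp. NK array had to lie above the highest of the other 9 arrays, and the mean of Sp. NK at least 0.4 above the mean of those 9 on the log2 scale. Probe sets with all Sp. LK arrays above all 6 uniform arrays were to be left out, a clause that removed 0 probe sets. Everything said below of Sp. NK against another group was thus used in the choice and is a description without a test. The direction of C. LK vs. C. NK was not used in it, since the rule treats the uniform arrays alike. All 6 of them nevertheless had to lie below the lowest Sp. NK array.

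Among the 26541 brighter probe sets, 41 had all 3 Sp. NK arrays above the other 9, which is 0.154%. Among 12 exchangeable arrays, 1 in 220 probe sets would show this order, which is 120.6 probe sets here, so the number for Sp. NK lay below the chance number. The same order was met by 88 probe sets for Sp. LK, 181 for C. LK and 133 for C. NK. With the difference of at least 0.4, 17 were left for Sp. NK, 50 for Sp. LK, 112 for C. LK and 32 for C. NK. The opposite order, with all 3 arrays of a group below the other 9, was met by 55 probe sets for Sp. NK, 80 for Sp. LK, 260 for C. LK and 93 for C. NK. Sp. NK was the group with the fewest probe sets of its own in either direction. Below the limit of 7, where signals lie nearer to background, 112 of 34574 had all Sp. NK arrays highest, with a chance number of 157.2.

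**Figure D1:**
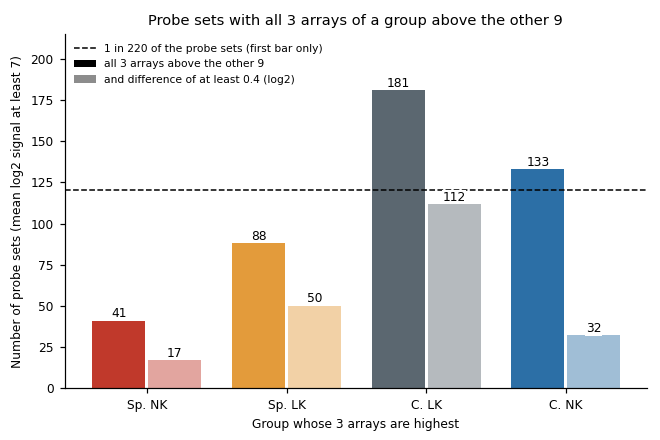
Number of probe sets (y axis, among the 26541 with a mean log2 signal of at least 7) in which all 3 arrays of the group on the x axis lay above the other 9 arrays, before (dark bars) and after (pale bars) the limit of 0.4 on the log2 difference. Sp. NK has 41 and 17, the lowest pair of the 4 groups, and the dashed line marks the chance number of 120.6 for the dark bars.

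The 17 probe sets belong to 17 different transcript clusters, and the array annotation gives a gene symbol to 0 of them, as to most of the array (1273 probe sets have exactly 1 symbol). They are therefore named here by their probe set identifiers, and no function is attached to them except where the study's own list of key genes has an entry. By identifier, 12 end in _at (a transcript-specific design), 2 in _s_at (probes shared by several transcripts), 2 in _x_at (some probes can cross-hybridise) and 1 in _a_at (transcripts of 1 gene). The _at design made up 70.6% of them, against 66.7% of the brighter probe sets. Wheat is hexaploid and carries near-identical homoeologous copies of most genes, which such probe sets may not separate.

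The 17 differed from the other 9 arrays by 0.41 to 0.96 on the log2 scale, with a median of 0.52, a 1.43-fold difference. Their mean signal ran between 7.02 and 11.7, with a median of 8.26. For 4 of them the mean of the other 9 arrays alone was below 7, so that they passed the limit on brightness only with the Sp. NK arrays. These were Ta.29508.3.S1_a_at and TaAffx.56346.1.S1_at, which had the largest differences of the 17, and Ta.27893.1.A1_at and Ta.4430.1.A1_at. The separation was narrow: the lowest Sp. NK array stood 0.0040 to 0.17 above the highest other array (median 0.049), and in 14 of the 17 by less than 0.1. In 0 of the 17 was that gap larger than the SD of arrays within groups, whose median was 0.26. The order of arrays thus rests in all 17 on a margin smaller than the spread between replicates.

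**Figure D2:**
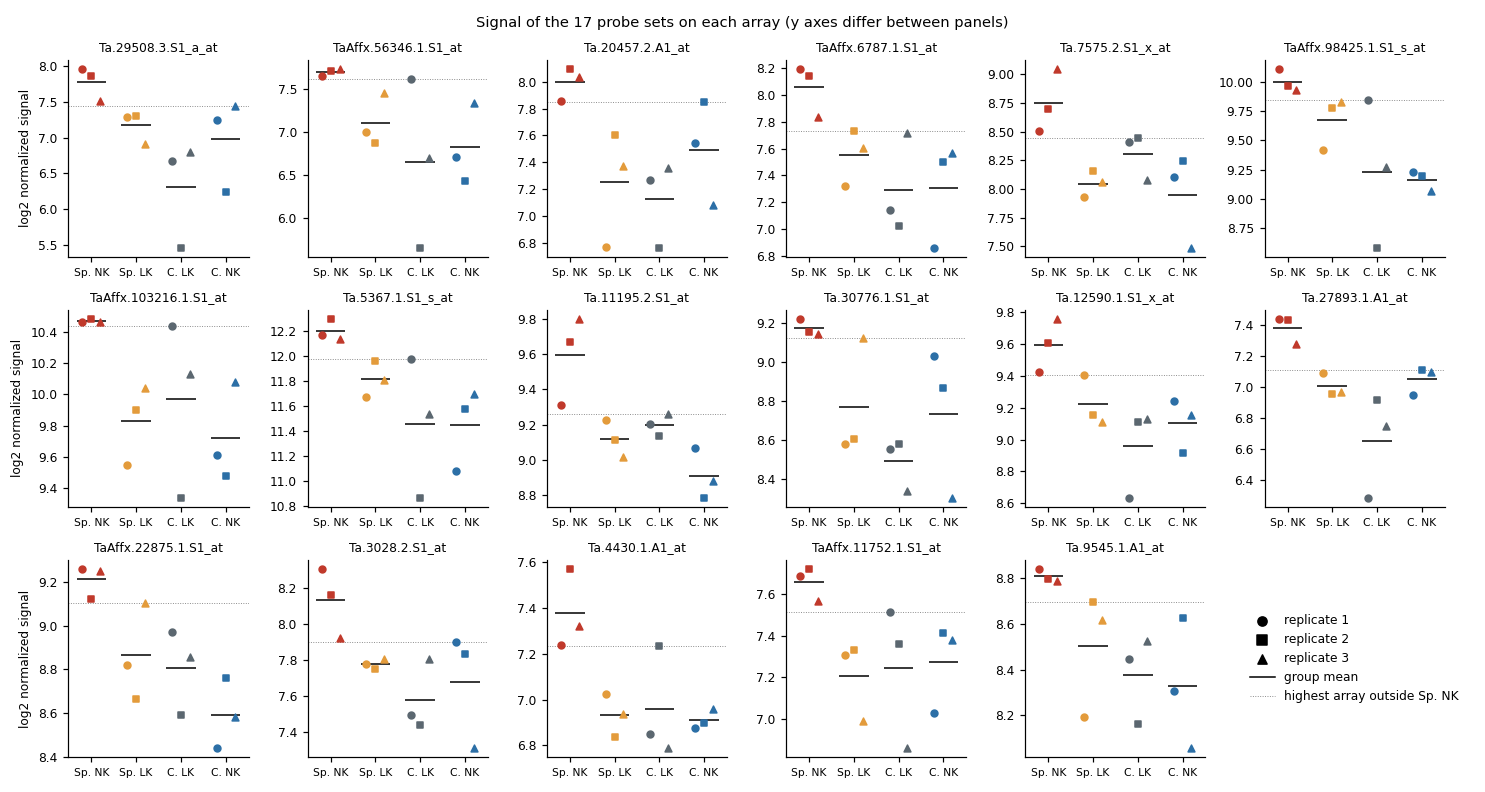
Deposited log2 signal (y axis, own scale in each panel) of the 17 probe sets on the 12 arrays, by group (x axis), with marker shapes for the replicate numbers, a bar for each group mean and a dotted line at the highest array outside Sp. NK. In every panel the 3 Sp. NK points lie above that line, as the choice requires, and in 14 panels the lowest of them clears it by less than 0.1.

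Sp. LK was the second highest group in 10 of the 17, C. LK in 4 and C. NK in 3. The lowest group was C. LK in 8, C. NK in 8 and Sp. LK in 1. No share over the brighter probe sets is set beside these places, and nothing is read from them. They serve below only to order the account. Averaged over the 17 after centring each on its own mean, the arrays stood at 0.42, 0.47 and 0.42 in Sp. NK, at -0.12, -0.00 and 0.02 in Sp. LK, at -0.07, -0.46 and -0.15 in C. LK, and at -0.19, -0.16 and -0.17 in C. NK. The 3 Sp. LK arrays lay close to the middle, the C. NK arrays were alike, and C. LK replicate 2 was far below the other C. LK arrays.

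The probe set with the largest difference was Ta.29508.3.S1_a_at, one of the 10 in which Sp. LK came second. It had log2 signals of 7.96, 7.85 and 7.51 in Sp. NK, 7.29, 7.30 and 6.92 in Sp. LK, 6.67, 5.46 and 6.80 in C. LK, and 7.24, 6.25 and 7.45 in C. NK. On the linear scale it averaged 221 ± 34.4 in Sp. NK, 145 ± 20.8 in Sp. LK, 85.6 ± 36.4 in C. LK and 134 ± 51.5 in C. NK (SD, n = 3 each). Its difference from the other 9 arrays was 0.96, yet Sp. NK replicate 3 and C. NK replicate 3 were only 0.067 apart, and the lowest arrays were C. LK replicate 2 and C. NK replicate 2.

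TaAffx.56346.1.S1_at was tight in Sp. NK, at 7.64, 7.70 and 7.73, and scattered elsewhere. Its other arrays read 6.99, 6.87 and 7.45 in Sp. LK, 7.61, 5.66 and 6.70 in C. LK, and 6.70, 6.43 and 7.34 in C. NK. C. LK thus held both the highest and the lowest of the 9 arrays outside Sp. NK. TaAffx.6787.1.S1_at read 8.20, 8.14 and 7.84 in Sp. NK, 7.32, 7.73 and 7.61 in Sp. LK, 7.14, 7.02 and 7.72 in C. LK, and 6.86, 7.50 and 7.56 in C. NK. Sp. LK replicate 2 at 7.73 and C. LK replicate 3 at 7.72 came closest to the lowest Sp. NK array.

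The brightest of the 17 was Ta.5367.1.S1_s_at. It had 12.17, 12.29 and 12.13 in Sp. NK, 11.67, 11.96 and 11.81 in Sp. LK, 11.97, 10.86 and 11.54 in C. LK, and 11.08, 11.58 and 11.69 in C. NK. As linear signal these were 4705 ± 280 in Sp. NK, 3602 ± 359 in Sp. LK, 2950 ± 1078 in C. LK and 2840 ± 603 in C. NK (SD, n = 3 each). Its margin of 0.16 was among the widest of the 17, second to that of Ta.27893.1.A1_at at 0.17. C. LK replicate 1 and Sp. LK replicate 2 came nearest to Sp. NK.

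TaAffx.98425.1.S1_s_at is the probe set that the study's supplementary list of key genes holds, under cytoplasmic membrane-bounded vesicle, a term for the transport vesicles that carry membrane and cargo between compartments. It read 10.11, 9.97 and 9.93 in Sp. NK, 9.42, 9.77 and 9.83 in Sp. LK, 9.85, 8.58 and 9.27 in C. LK, and 9.23, 9.20 and 9.07 in C. NK. The linear signal was 1026 ± 70.0 in Sp. NK and 575 ± 32.9 in C. NK (SD, n = 3 each), with Sp. LK between them and C. LK spread across the whole range below Sp. NK. Its log2 difference of Sp. NK from the other 9 arrays was 0.64.

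The remaining 5 of the 10 with Sp. LK second had smaller differences, of 0.41 to 0.51. Ta.30776.1.S1_at read 9.22, 9.16 and 9.14 in Sp. NK, 8.58, 8.61 and 9.13 in Sp. LK, 8.55, 8.58 and 8.34 in C. LK, and 9.03, 8.87 and 8.30 in C. NK, so that a single Sp. LK array came within 0.017 of Sp. NK. TaAffx.22875.1.S1_at read 9.26, 9.12 and 9.25 in Sp. NK against 8.44, 8.76 and 8.58 in C. NK, and Sp. LK replicate 3 reached 9.10. Ta.12590.1.S1_x_at, Ta.3028.2.S1_at and Ta.9545.1.A1_at had margins of 0.016, 0.024 and 0.092.

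In 4 probe sets C. LK was the second highest group. Ta.7575.2.S1_x_at read 8.50, 8.70 and 9.05 in Sp. NK, 7.93, 8.15 and 8.06 in Sp. LK, 8.41, 8.44 and 8.08 in C. LK, and 8.10, 8.25 and 7.48 in C. NK. TaAffx.103216.1.S1_at was nearly constant in Sp. NK, at 10.46, 10.48 and 10.47, and C. LK replicate 1 at 10.43 almost met it while C. LK replicate 2 read 9.34. Ta.11195.2.S1_at read 9.31, 9.67 and 9.80 in Sp. NK, 9.23, 9.11 and 9.02 in Sp. LK, 9.20, 9.14 and 9.26 in C. LK, and 9.07, 8.78 and 8.88 in C. NK, where all 3 C. LK arrays lay above all 3 C. NK arrays. Ta.4430.1.A1_at, with a mean of 7.04, lay between 6.79 and 7.03 outside Sp. NK apart from C. LK replicate 2, which came within 0.0048 of the lowest Sp. NK array.

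In the last 3, C. NK came second. Ta.20457.2.A1_at read 7.85, 8.10 and 8.04 in Sp. NK, 6.77, 7.61 and 7.37 in Sp. LK, 7.27, 6.76 and 7.36 in C. LK, and 7.54, 7.85 and 7.08 in C. NK. C. NK replicate 2 and Sp. NK replicate 1 differed by 0.0040, the narrowest margin of all. Ta.27893.1.A1_at read 7.44, 7.43 and 7.27 in Sp. NK, 7.09, 6.95 and 6.97 in Sp. LK, 6.28, 6.92 and 6.75 in C. LK, and 6.95, 7.11 and 7.09 in C. NK, with every C. LK array below every C. NK array. TaAffx.11752.1.S1_at had a difference of 0.41 and was the only probe set with Sp. LK as the lowest group.

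The limits of the rule cut through a continuum of values. Just inside the limit on the difference were Ta.9545.1.A1_at and TaAffx.11752.1.S1_at at 0.41 and Ta.4430.1.A1_at at 0.44. Just outside were Ta.22678.1.A1_a_at at 0.398, TaAffx.22643.1.S1_at at 0.393 and Ta.21659.1.A1_at at 0.388. Just inside the limit on brightness were Ta.27893.1.A1_at at 7.02, Ta.4430.1.A1_at at 7.04 and Ta.29508.3.S1_a_at at 7.06, and just outside were TaAffx.77530.1.S1_at at 6.92, TaAffx.64849.1.A1_at at 6.88 and Ta.25689.1.S1_at at 6.86.

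C. LK vs. C. NK asks how uniform K deprivation changed the same transcripts, and it is the comparison whose direction the choice did not use. Every uniform array had to lie below the lowest Sp. NK array, so shares over the array are no exact background for the 17. With limma over all 61115 probe sets, and calls at the study's thresholds (a fold change over 1.5 with unadjusted p below 0.05), 0 of the 17 were up-regulated and 0 down-regulated, and 0 had an unadjusted p under 0.05. The methods' t-test called 0 as well. Over the array 1.84% of probe sets were up-regulated and 1.81% down-regulated, and among the brighter ones 0.923% and 0.791%, so that at this background a list of 17 would hold few calls or none. After Benjamini-Hochberg adjustment 0% of the array passed 0.05 in limma, although 3134 probe sets had an unadjusted p under 0.05, and the adjusted p of the 17 ran between 0.938 and 0.998. The log2 fold change was positive in 8 and negative in 9, with a median of -0.01, the same as the median of the brighter probe sets, of which 47.6% were positive. With a median SE of 0.23, changes under the 1.5-fold threshold could hardly be told from 0 with 3 arrays per group.

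The lowest value in C. LK vs. C. NK was that of Ta.29508.3.S1_a_at, at -0.67 (SE 0.38, unadjusted p = 0.103 and adjusted p = 0.938 in limma). The highest was that of Ta.7575.2.S1_x_at, at 0.36 (SE 0.22, unadjusted p = 0.116 in limma). All 3 C. LK arrays lay above all 3 C. NK arrays in 1 of the 17, Ta.11195.2.S1_at at 0.29 (SE 0.14), and below them in 1, Ta.27893.1.A1_at at -0.40 (SE 0.24). Of the brighter probe sets, 4.26% were separated upwards in the same way and 5.47% downwards. Without C. LK replicate 3, Ta.29508.3.S1_a_at had -0.92 (unadjusted p = 0.048 in limma), and without C. NK replicate 2 it had -1.04 (unadjusted p = 0.017 in limma), which made it the single down-regulated probe set of the 17 in these settings.

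**Figure D3:**
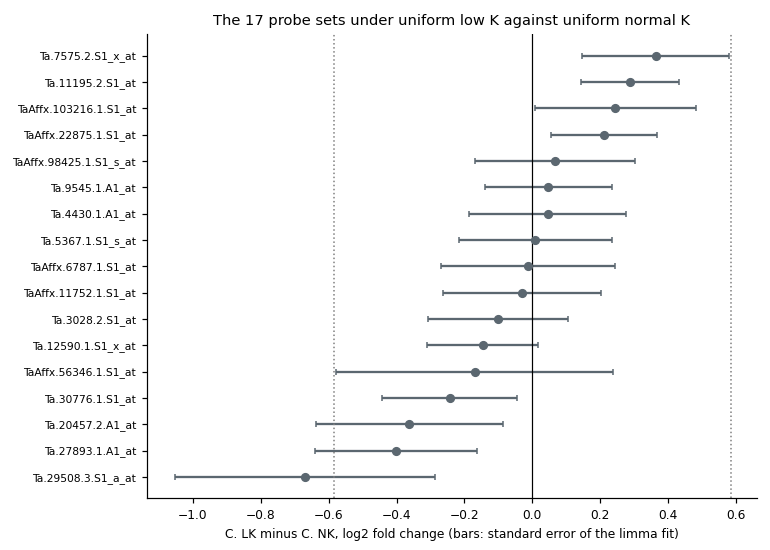
Log2 fold change of C. LK against C. NK (x axis) for the 17 probe sets (y axis), with the standard error of the limma fit as bars and dotted lines at a fold change of 1.5 in either direction. The values run from -0.67 for Ta.29508.3.S1_a_at to 0.36 for Ta.7575.2.S1_x_at, with 8 above 0 and 9 below.

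The comparisons that the choice used are given as descriptions. In Sp. NK vs. C. NK the 17 had a median log2 fold change of 0.62 (0.33 to 0.87), and 7 of them reached the study's thresholds, where 0.889% of the brighter probe sets did. Those 7 were Ta.11195.2.S1_at, TaAffx.22875.1.S1_at, Ta.7575.2.S1_x_at, TaAffx.98425.1.S1_s_at, Ta.5367.1.S1_s_at, TaAffx.103216.1.S1_at and TaAffx.6787.1.S1_at, the first of them at 0.68 (SE 0.14). In Sp. NK vs. Sp. LK the median was 0.45 (0.31 to 0.74), and 3 reached the thresholds, against 0.283% of the brighter probe sets. In Sp. NK vs. C. LK the median was 0.64 (0.39 to 1.47), and 9 reached them, against 1.96%. In each of these comparisons 0 of the 17 passed an adjusted p of 0.05 in limma. In the same order, 11, 6 and 13 of them had an unadjusted p under 0.05. Of all 61115 probe sets, 2594, 1907 and 3727 had an unadjusted p under 0.05 in limma, and 0, 0 and 1 passed the adjusted p. The choice used these comparisons, so setting the 17 beside the array is no test.

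Sp. LK vs. C. LK, the comparison of both low-K sides, was partly used by the choice and is a description as well. Every array of both groups had to lie below the lowest Sp. NK array and entered the mean of the other 9. The clause on Sp. LK removed 0 probe sets. The 17 had a median of 0.20 there and the brighter probe sets 0.02. Of the 17, 12 were positive, as were 52.8% of the brighter probe sets, and 1 was up-regulated at the study's thresholds, against 2.62% of the brighter probe sets. That was Ta.29508.3.S1_a_at at 0.86 (SE 0.38), with an adjusted p of 0.65 in limma.

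The array carries 13 further probe sets for 9 of the 17 transcript clusters. They read the same or a neighbouring transcript. The rule was applied to them as well and did not choose them. A brighter one among them therefore cannot have both all Sp. NK arrays highest and a difference of at least 0.4. The shares over all brighter probe sets given below are without this exclusion. Probes with shared sequence also make them no separate evidence. Sp. NK was above the mean of the other 9 arrays in 10 of the 13 and below it in 3. Only 9 of the 13 had a mean of at least 7. Of these 9, Sp. NK was above in 6 and below in 3, and in 2, both of the cluster of Ta.29508.3.S1_a_at, the difference was at least 0.4. Of all brighter probe sets, 49.7% were above and 2.36% reached 0.4. Another 3 that reached 0.4 were dimmer than the limit. In 1 of the 13 all Sp. NK arrays were again above the other 9. This was Ta.5367.2.S1_x_at, annotated as LOC606326, a gene without a given function, with 7.19, 7.48 and 7.29 in Sp. NK, 6.94, 7.07 and 7.08 in Sp. LK, 6.14, 5.89 and 6.50 in C. LK, and 6.22, 6.20 and 7.04 in C. NK. Its mean of 6.75 kept it under the brightness limit, and its Sp. LK arrays, like those of Ta.5367.1.S1_s_at, lay between Sp. NK and most of the uniform arrays.

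The other probe sets of the same cluster as Ta.29508.3.S1_a_at followed its order of groups. In neither of them did all Sp. NK arrays lie above the other 9. In Ta.29508.1.S1_at all 3 C. LK arrays lay below every array of the other groups. Ta.29508.1.S1_at read 8.61, 7.85 and 8.15 in Sp. NK, 7.88, 8.10 and 7.68 in Sp. LK, 6.89, 6.33 and 7.44 in C. LK, and 7.76, 7.50 and 8.36 in C. NK, a difference of 0.65. Ta.29508.2.S1_a_at had a difference of 0.60. C. LK was the lowest group in each of the 3, and in C. LK vs. C. NK Ta.29508.1.S1_at was down-regulated at the study's thresholds, at -0.99 (SE 0.31, unadjusted p = 0.0065 and adjusted p = 0.938 in limma), which Ta.29508.2.S1_a_at at -0.68 (SE 0.38) was not.

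For most other clusters the further probe sets showed smaller or opposite differences. Ta.27893.2.S1_at, of the cluster of the probe set with the widest margin, had a difference of 0.025, with 6.41, 5.98 and 7.04 in Sp. NK and 6.28, 6.49 and 6.66 in C. NK. Ta.7575.1.S1_at, a brighter probe set of the cluster of Ta.7575.2.S1_x_at, had a difference of -0.10, with 11.02, 11.03 and 10.80 in Sp. NK and 11.15, 11.27 and 11.04 in C. NK. Ta.20457.1.A1_a_at had -0.06 and Ta.3028.1.A1_at -0.11. The 3 probe sets of the cluster of Ta.11195.2.S1_at had 0.14 to 0.27 and Ta.12590.1.S1_s_at had 0.24, each short of the 0.4 of the rule. TaAffx.98425.1.S1_x_at at 0.92 and Ta.5367.3.S1_x_at at 1.12 had larger values but mean signals of 5.72 and 4.84, where arrays of the same group differed widely.

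**Figure D4:**
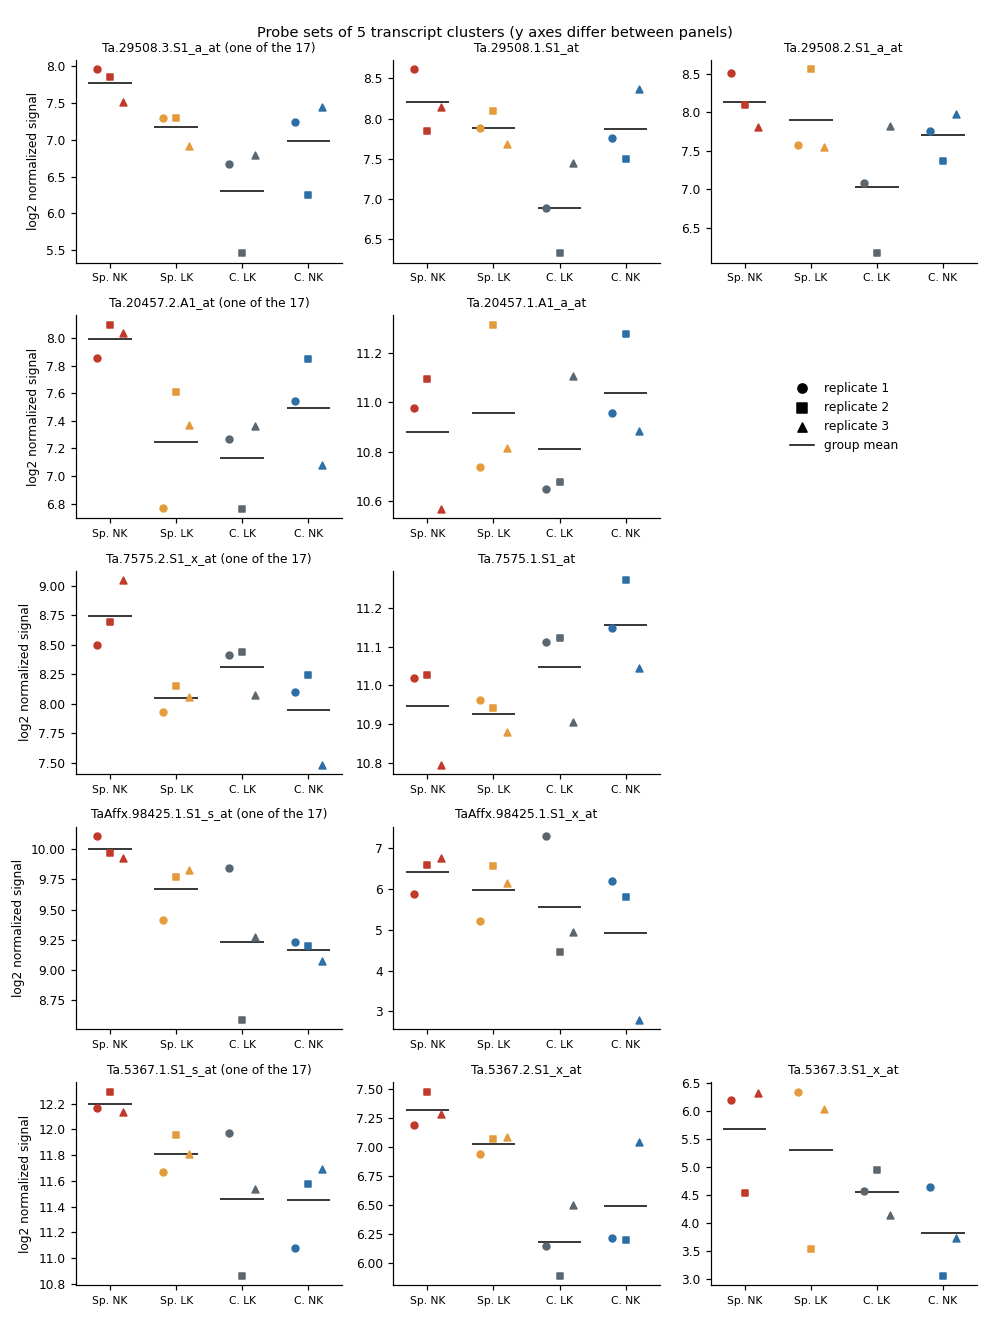
Deposited log2 signal (y axis, own scale in each panel) of the probe sets of 5 transcript clusters, 1 cluster per row with the chosen probe set first (the 5 largest differences among clusters with further probe sets), by group (x axis) with a bar for each group mean. Ta.5367.2.S1_x_at, like Ta.5367.1.S1_s_at, has the Sp. NK arrays highest and Sp. LK second, while Ta.7575.1.S1_at has Sp. NK below C. NK, unlike Ta.7575.2.S1_x_at.

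The study's supplementary list of key genes names 37 probe sets that it gives as higher in Sp. NK than in C. NK, in categories such as glutathione transferase, the vesicle term above and transcription factor activity. The list was chosen on these arrays, so its direction in that comparison is not independent evidence. Of the 37, 34 had a mean of at least 7, whereas each share given beside them is over the brighter probe sets only. All 37 had every Sp. NK array above every C. NK array, against 4.03% of the brighter probe sets. Only 19 were also above every Sp. LK array (2.57% of the brighter probe sets), 12 were above every C. LK array (6.78%), and 1, TaAffx.98425.1.S1_s_at, was above all other 9. Of the 10 vesicle probe sets, 6 were above every Sp. LK array and 2 above every C. LK array. In C. LK vs. C. NK, 3 of the 37 were up-regulated at the study's thresholds and 0 down-regulated, against 0.923% and 0.791% of the brighter probe sets. Both comparisons use the same C. NK arrays, below which these 37 were chosen to lie, so nothing is read from that count. Among the 3 was a vesicle probe set, TaAffx.130164.1.S1_x_at, at 0.67. For glutathione transferase, a family of detoxifying enzymes, 0 of 4 probe sets were above every Sp. LK array and 4 above every C. LK array. For transcription factor activity it was 6 of 7 and 0 of 7.

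By the Pearson correlation over the 12 arrays, the probe sets most like the mean of the 17 were TaAffx.111569.1.S1_at with r = 0.90, Ta.13988.1.S1_at and Ta.16962.1.A1_at with r = 0.89, TaAffx.37474.1.S1_at with r = 0.86 and Ta.11337.1.A1_at with r = 0.85. These are descriptions over arrays that share groups. TaAffx.111569.1.S1_at had all Sp. NK arrays highest but a difference of 0.29. Ta.13988.1.S1_at, another vesicle probe set of the study's list, had a difference of 1.54, larger than that of any of the 17. It read 8.94, 9.02 and 8.35 in Sp. NK, 7.08, 7.80 and 7.73 in Sp. LK, 8.40, 5.38 and 6.86 in C. LK, and 7.33, 7.06 and 7.39 in C. NK, and was not chosen because C. LK replicate 1 lay above Sp. NK replicate 3.

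The number of chosen probe sets depended on single arrays. Leaving out 1 array outside Sp. NK, which by construction lets more probe sets through, gave 93 without C. LK replicate 1 and 41 without Sp. LK replicate 2, and between 19 and 25 without any other of the 9. Leaving out 1 Sp. NK array gave 58, 76 and 135 without replicate 1, 2 and 3. Of the 17, 10 were chosen in all 12 of these settings. Leaving out an array cannot undo the order of arrays, so only a limit or the clause on Sp. LK could remove a probe set. Quantile normalization and centring can change that order. They kept 10 and 11 of the 17, with 9 kept in both. C. LK replicate 1 was the highest of the other 9 arrays in 5 of the 17, and of the brighter probe sets in 7.61%. C. LK replicate 2 was the lowest array in 6 of the 17, and of the brighter probe sets in 17.7%. That last share is over all 12 arrays and is no like background. By the rule no Sp. NK array can be lowest in the 17, while replicates 1, 2 and 3 of Sp. NK were lowest in 6.34%, 5.92% and 9.30% of the brighter probe sets.

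**Figure D5:**
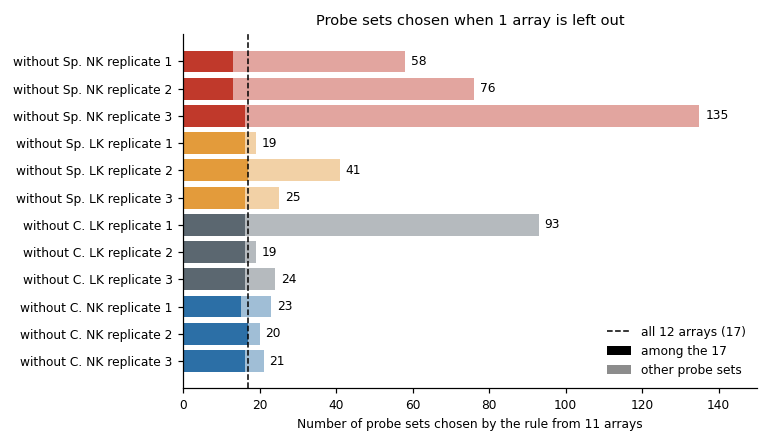
Number of probe sets (x axis) that the same rule chose when the array on the y axis was left out, with the part that belongs to the 17 in the darker shade and a dashed line at 17. The count is 135 with Sp. NK replicate 3 left out, 93 with C. LK replicate 1 left out, and 19 to 76 in the other settings. With an array left out the order of arrays is easier to meet by construction, most of all without an Sp. NK array.

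Over the whole array, the median log2 signal of the brighter probe sets was 9.21 to 9.28 on the 12 arrays, so brightness differed little between them. The 3' minus 5' signal of the sucrose synthase control, which grows as RNA degrades, was 3.71 to 4.20 in Sp. NK, 3.81 to 4.30 in Sp. LK, 3.86 to 4.06 in C. LK and 4.29 to 4.51 in C. NK, so that C. NK stood above Sp. NK and C. LK on every array while Sp. NK, Sp. LK and C. LK overlapped. That of actin went the other way, at -2.48 to -1.17 in Sp. NK, -2.00 to -0.33 in Sp. LK, -1.51 to -0.99 in C. LK and -3.87 to -2.16 in C. NK, with every C. LK array above every C. NK array. Those of G6PDH, GAPDH, elongation factor 1A and ubiquitin overlapped between C. LK and C. NK. For actin every Sp. LK array was above every C. NK array too. The part of RNA quality in the values of C. NK was not tested. This applies to every comparison with C. NK, Sp. NK vs. C. NK and C. LK vs. C. NK among them. Of the tissue markers, only leaf petC, the Rieske protein of the photosynthetic cytochrome complex, could be matched to the annotation: its 2 probe sets read 0.75 to 6.41 and so lay near background. Root markers were not matched, and the label root was not checked with them. The arrays measured whole roots, in which fewer cells of a type and less RNA per cell cannot be told apart.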

How the data were processed

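Total RNA of 12 root samples, 3 in each of Sp. NK, Sp. LK, C. LK and C. NK, was hybridised to Affymetrix arrays. Normalization by the authors used MAS5 (named in the submitters' processing notes) within GeneSpring, and log2 values were deposited. After conversion to linear signal every array has a trimmed mean of 500.1, so values are relative to an array's total. Raw intensities and detection calls were not used. Of 61290 probe sets, 175 controls were left out. Fold changes and SE come from limma 3.58.1 in R 4.3.3 (lmFit over 4 group means, eBayes with trend = TRUE), fitted on all 61115 probe sets without further scaling, with two-sided and Benjamini-Hochberg adjusted p. The scripts were tested on simulated data. Genes named followed a rule: members with a symbol, in the study's tables, with the 10 largest differences, called in C. LK vs. C. NK, next to a limit, or with the 5 smallest p in Sp. NK vs. C. NK; and the 5 probe sets most like the members. The members and lists were chosen with earlier results of these data known. A few probe sets that the rule leaves out are not reported here. Gene lists by words in gene names could not be built, since the annotation used here holds no gene names.

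Arrays of the same number in Sp. NK and C. NK deviated together from their group means (r = 0.34, 0.21 and 0.35 over the brighter probe sets, each highest with its own number), a pairing taken from the data and not from the labels, and the fit with the replicate number as a block was run as an alternative. Other alternatives were the limits of the rule, quantile normalization and centring, leaving out each array, and the methods' t-test. Precision is limited by 3 arrays per group, and p-values measure only the spread between these samples.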

Additional observations from a re-analysis of the deposited data

How the results depend on the processing

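The 17 probe sets became 31 with a brightness limit of 6, 9 with a limit of 8, 41 with no limit on the difference and 8 with a difference of at least 1.5-fold. Quantile normalization gave 16 and centring 13, of which 10 and 11 were among the 17. With 1 array left out, which makes the order of arrays easier to meet, the number was 19 to 135. In C. LK vs. C. NK the down-regulated members numbered 0 to 1 with 1 array left out, up-regulated members stayed at 0, and the median over members ran from -0.08 to 0.12 (highest without C. LK replicate 2). The fit with the replicate number as a block, where same-numbered C. LK and C. NK arrays did not deviate together (r = 0.19, -0.03 and -0.23), called 0 members, as did the methods' t-test. In Sp. NK vs. C. NK, 9 members were called with the block, 8 by the t-test, 5 to 9 with 1 array left out, and 0 by adjusted p in every alternative run. The block and the t-test changed no member's call in C. LK vs. C. NK.

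With 1 array left out, the value of C. LK minus C. NK changed sign in 9 members, with ranges of -0.24 to 0.016 for Ta.12590.1.S1_x_at, -0.29 to 0.0077 for Ta.3028.2.S1_at, -0.093 to 0.13 for Ta.4430.1.A1_at, -0.25 to 0.31 for Ta.5367.1.S1_s_at, -0.089 to 0.20 for Ta.9545.1.A1_at, -0.16 to 0.16 for TaAffx.11752.1.S1_at, -0.65 to 0.33 for TaAffx.56346.1.S1_at, -0.24 to 0.12 for TaAffx.6787.1.S1_at and -0.24 to 0.39 for TaAffx.98425.1.S1_s_at. None of these values had passed the thresholds. The cause was not tested.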
